A study of Homo sapiens with 18 samples.

Results

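The comparison described here set the 4 arrays of MSTO-211H cells that had received cisplatin for 8 h against the 4 arrays of cells that had not. MSTO-211H is an established line of human malignant mesothelioma, so all values come from 1 cell line. The arrays were chosen by their treatment labels alone and are 8 of the 18 HGU133A arrays of the series: 2 of cells given 760 µM piroxicam together with 4.5 µg/mL cisplatin (P/C), 2 of cells given 4.5 µg/mL cisplatin (C), 2 of cells given 760 µM piroxicam (P) and 2 of untreated cells (U), all at 8 h and all numbered replicate 1 or 3. The study calls its replicates biological, and the labels do not say what a replicate number shares. An array of this type measures each gene by 1 or more sets of short probes (probe sets), and the deposited values are log2 signals. All 22215 probe sets that are not Affymetrix controls were tested, of 22283 on the array.

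Cisplatin forms covalent adducts and crosslinks on DNA, which block replication forks and stop RNA polymerase II on the transcribed strand. Damaged DNA activates checkpoint kinases that stabilise the transcription factor p53, and p53 in turn induces genes of cell cycle arrest, repair and apoptosis. In dividing cells, arrest can in turn lower the transcripts that are made only for mitosis, depending on the stage at which the cells stop. Piroxicam belongs to the non-steroidal anti-inflammatory drugs and blocks the cyclooxygenases.

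The largest differences after 8 h of cisplatin were higher signals of the stress-induced transcription factor ATF3, the p53 target genes GDF15, CDKN1A and PPM1D, and lower signals of the nuclear receptor NR3C2 and the transcriptional co-regulator ZMIZ1. Each of these had the same direction in all 4 matched pairs of arrays, which are C with U and P/C with P within replicate 1 and within replicate 3. The p53 target genes were higher as a group, the mitosis genes lower, and the genes with the most negative differences were mostly long ones. A seventh probe set reached an absolute difference of 1, that of the Rac activator DOCK4 (−1.02), but it was lower in 3 of 4 pairs; it was chosen after its values were seen. No single probe set passed the call rule of the study, which sets 0.05 as the limit of the adjusted p and 1 as that of the absolute log2 difference (limma, Benjamini-Hochberg over all probe sets). The smallest adjusted p was 0.0878, and 1249 probe sets had an unadjusted p under 0.05, 548 higher (2.47% of those tested) and 701 lower (3.16%), where 1111 are expected from p values alone. With 0.0% of the probe sets called in either direction, the values below are given as differences with their standard errors (SE) and not as established changes.

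CDKN1A encodes p21, the inhibitor of cyclin-dependent kinases that p53 induces. Its log2 signal was 9.41 and 8.77 on the P/C arrays (replicates 1 and 3) and 9.05 and 8.99 on the C arrays, against 8.18 and 8.11 on the P arrays and 7.87 and 7.70 on the U arrays. Every array with cisplatin lay above every array without it, as was the case for 155 of all probe sets (0.698%). The fitted difference was 1.09 (SE 0.12, adjusted p = 0.1025), and its 95% interval was 0.81 to 1.37.

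PPM1D, the phosphatase that switches off p53 and its kinases, also had no overlap between the arrays with and without the drug. Its log2 signal was 6.91 and 7.53 with P/C and 7.23 and 7.64 with C, against 6.63 and 6.53 with P and 5.70 and 6.31 in untreated cells, a fitted difference of 1.03 (SE 0.19, adjusted p = 0.40).

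GDF15, a secreted member of the TGF-beta family, is induced by stress and by p53. It was at 9.67 and 9.77 with P/C and 8.09 and 8.88 with C, against 8.68 and 9.21 with P and 6.85 and 6.80 in untreated cells. The arrays with and without cisplatin overlapped. The signal was also higher with piroxicam, by 1.68 (adjusted p = 0.0037; 0.333% of all probe sets were called higher with piroxicam and 0.621% lower), and within matched pairs GDF15 was higher with cisplatin in 4 of 4 (fitted difference 1.22, SE 0.21, adjusted p = 0.362). SESN1, a p53-induced regulator of mTORC1 signalling, behaved alike, at 7.09 and 6.64 with P/C and 6.39 and 6.29 with C, against 6.28 and 6.32 with P and 5.45 and 5.62 in untreated cells (0.69, SE 0.12, adjusted p = 0.362).

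ATF3 had the smallest p of all probe sets. Its log2 signal was 7.05 and 6.83 with P/C and 5.04 and 4.72 with C, against 5.66 and 5.87 with P and 3.79 and 3.22 in untreated cells. The difference was 1.27 (SE 0.13, adjusted p = 0.0878), on top of a difference of 2.16 with piroxicam. Most of these values lie under 6.64, the log2 of a signal of 100, which is the intensity limit of the study's filter; probe sets under it are called dim here. The P/C arrays alone exceeded it.

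ZMIZ1, a co-activator of nuclear receptors and other transcription factors, was lower on every array with cisplatin than on any without it, as were 275 of all probe sets (1.24%). It was at 6.27 and 5.94 with P/C and 5.47 and 5.19 with C, against 7.49 and 6.69 with P and 6.63 and 6.69 in untreated cells (difference −1.16, SE 0.14, adjusted p = 0.161). NR3C2, the mineralocorticoid receptor, was also lower throughout, at 3.71 and 3.86 with P/C and 4.60 and 4.48 with C, against 5.14 and 5.47 with P and 5.54 and 6.50 in untreated cells. Its difference was −1.50 (SE 0.16, adjusted p = 0.0878). All 8 of its values lie under the limit of a signal of 100, so NR3C2 falls outside the rule for naming genes and was chosen after its values were seen.

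**Figure D1:**
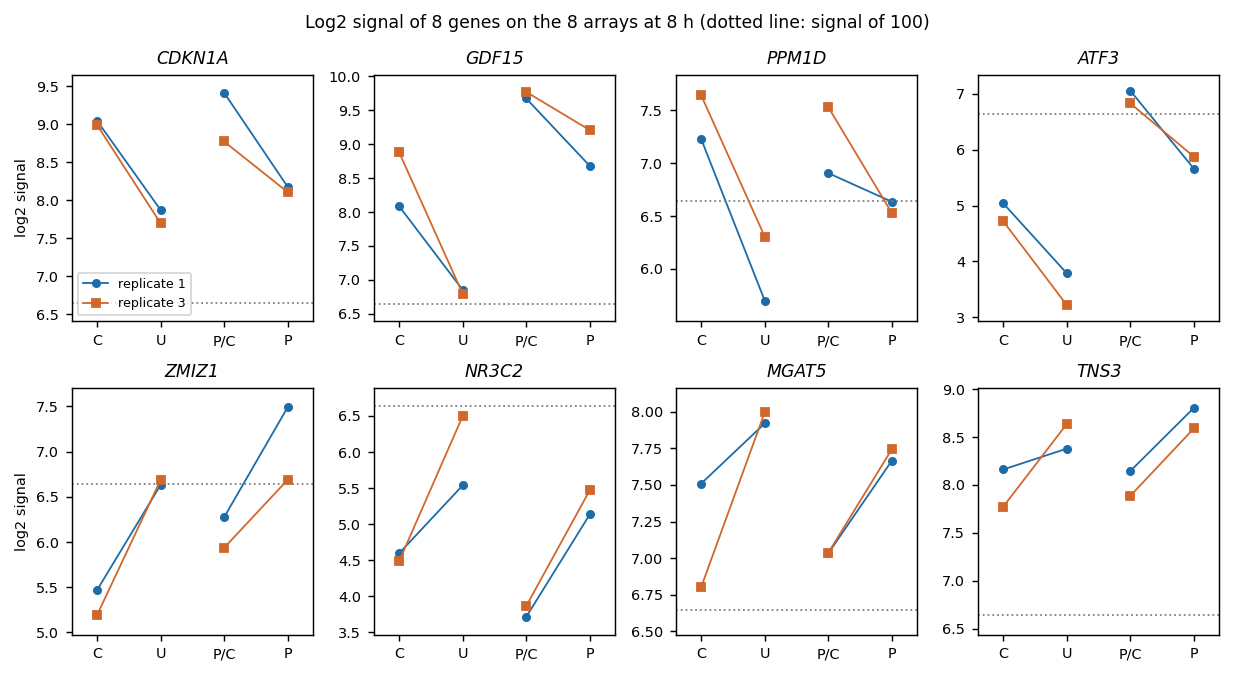
Log2 signal (vertical axis) of 8 genes on the 8 arrays at 8 h by treatment (horizontal axis), with a line from each cisplatin array to the array of the same replicate number and piroxicam state without cisplatin, and a dotted line at a signal of 100. CDKN1A, GDF15, PPM1D and ATF3 are higher at the cisplatin end of all 4 lines, and ZMIZ1, NR3C2, MGAT5 and TNS3 are lower.

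The call of these genes depended on how many probe sets were tested and how their spread was modelled. A filter with the limits of the study, applied here to the deposited values, keeps probe sets whose interquartile range reaches 0.25 and whose signal reaches 100 in 25% or more of the 18 arrays. It does not keep the same number of probe sets as the study states. With it 3057 probe sets were tested and 3 were called, ATF3 (adjusted p = 0.0188), CDKN1A (0.0256) and ZMIZ1 (0.0275). With a spread that follows the intensity and a robust prior, all probe sets were tested and 4 were called, CDKN1A (adjusted p = 0.00485), NR3C2 (0.00576), ATF3 (0.0126) and ZMIZ1 (0.0263).

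Among the other brighter probe sets with the smallest p, the higher ones held further genes known as p53 targets. TIGAR, a phosphatase that slows glycolysis, had a difference of 0.39 (SE 0.08, adjusted p = 0.516), and DRAM1, a lysosomal protein of autophagy, one of 0.47 (SE 0.11, adjusted p = 0.537). TENT5A, a non-canonical poly(A) polymerase, was at 6.63 and 6.34 with P/C and 7.75 and 6.96 with C, against 5.96 and 5.12 with P and 6.64 and 6.36 in untreated cells, a difference of 0.90 (SE 0.12, adjusted p = 0.199) that ran against one of −0.92 with piroxicam (adjusted p = 0.0049). The rest were the mitochondrial rRNA methyltransferase MRM2 (0.45, SE 0.09), the transcription factor CEBPD (0.64, SE 0.14), the membrane protein stomatin, STOM (0.40, SE 0.09), and the retrotransposon-derived gene PEG10 (0.42, SE 0.10), with adjusted p of 0.455 to 0.57. A dimmer probe set of PEG10 had a difference of −0.17, so the 2 disagree, and a second probe set of MRM2 near the signal limit had 0.20 (3 of 4 pairs higher). A second probe set of STOM, with a mean of 6.57 just under that limit, gave about the same value as the first (0.43 and 0.40).

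The lower ones included MGAT5, TNS3, EXT1 and HMGA2. MGAT5, which branches N-linked glycans, was at 7.03 and 7.04 with P/C and 7.51 and 6.80 with C, against 7.67 and 7.74 with P and 7.92 and 8.00 in untreated cells, without overlap (−0.74, SE 0.14, adjusted p = 0.455). TNS3, a tensin of focal adhesions, was at 8.15 and 7.89 with P/C and 8.16 and 7.77 with C, against 8.81 and 8.59 with P and 8.38 and 8.64 in untreated cells, also without overlap (−0.61, SE 0.12, adjusted p = 0.455). EXT1, which polymerises heparan sulfate, had −0.64 (SE 0.11, adjusted p = 0.362) and was lower in 4 of 4 pairs. The chromatin protein HMGA2 had −0.63 (SE 0.13, adjusted p = 0.51).

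For the 5 remaining genes of this kind the probe set with the smallest p was not the brightest one. PHLDA1, a small protein with a pleckstrin homology domain, had −0.82 (SE 0.13, adjusted p = 0.30) by one probe set and −0.40 by a brighter one. The glutamyl-prolyl-tRNA synthetase EPRS1 had −0.54 and −0.01, the translation factor EIF5A −0.58 and −0.08, the RNA-binding protein IGF2BP3 −0.45 and −0.03, and GALNT1, which starts mucin-type O-glycans, −0.46 and 0.11. For these last 4 genes the brighter probe set showed next to no difference, so the lower value holds for 1 probe set and not for the gene.

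The p53 target genes were described as a list of 40, of which 30 have a probe set with 1 gene symbol, each gene being represented by its brightest probe set. Their median difference was 0.25, against 0.00043 over all 11963 genes, and 29 of 30 were above 0. In all 4 matched pairs 13 of the 30 were higher and none was lower, where the same held for 686 of all genes higher (5.73%) and 862 lower (7.21%). The medians of the pairs lay close together, at 0.29 for C − U and 0.22 for P/C − P within replicate 1, and at 0.28 for C − U and 0.27 for P/C − P within replicate 3. None was called, and 12 had an unadjusted p under 0.05, all higher (2.67% of all genes were higher at this limit). The one below 0, named after its value was seen, was APAF1, the scaffold of the apoptosome (−0.19, 3 of 4 pairs lower). The median difference with piroxicam was 0.14 in the same fit. Leaving out any 1 of the 8 arrays gave medians of 0.24 to 0.28.

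The p53 response element is a run of 20 bases made of 2 like blocks of 10. It was sought in the promoters, 250 bases before to 50 bases after the gene start, with no spacer between the blocks, the 4 central C and G bases intact and at most 3 mismatches; it reads the same on both strands. A match was found for 8 of 25 listed p53 target genes that have a promoter sequence (32%) and for 141 of 9563 genes of the array (1.47%). The stretches of 3 genes of the list are shown as examples of such matches. Capitals mark the match, which is a description of the letters and not a measured binding site. The other genes with a match, and their cisplatin differences, were MDM2 (0.54), DDB2 (0.36), PMAIP1 (0.25), AEN (0.21) and RPS27L (0.17). CDKN1A and PPM1D were not among the 8. Sequences and positions are from RefSeq, build GRCh38.p14.
SESN1: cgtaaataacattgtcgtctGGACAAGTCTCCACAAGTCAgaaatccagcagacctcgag
FAS: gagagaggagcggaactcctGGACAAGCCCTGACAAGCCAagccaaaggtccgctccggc
GDF15: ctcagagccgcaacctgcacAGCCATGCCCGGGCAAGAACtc
The SESN1 stretch is chr6:109008998-109009057 (minus strand), that of FAS chr10:88991289-88991348 (plus strand) and that of GDF15 chr19:18386166-18386207 (plus strand). FAS, the death receptor, had 4.99 and 5.49 with P/C and 5.58 and 5.38 with C, against 4.99 and 5.01 with P and 4.55 and 4.84 in untreated cells (0.51, SE 0.15, adjusted p = 0.729). It was higher in 3 of 4 pairs and dim on all arrays.

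The mitosis genes lay on the other side. Of 53 listed genes 52 were measured, their median difference was −0.21, and 49 of 52 were below 0. In all 4 pairs 19 were lower and 1 was higher (all genes: 7.21% lower and 5.73% higher), and 17 were lower at an unadjusted p under 0.05 (all genes: 3.45%), with none called. The pair medians were −0.12 for C − U and −0.19 for P/C − P within replicate 1, and −0.36 for C − U and −0.11 for P/C − P within replicate 3, so that 1 pair stood out. Piroxicam went with a median of −0.19 in the same genes, so the median was negative with either drug. In RNA from whole cultures, fewer cells in mitosis and less of these transcripts per cell cannot be told apart.

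KIF18A, a kinesin of chromosome alignment, was at 5.01 and 6.0 with P/C and 6.54 and 6.82 with C, against 6.60 and 6.90 with P and 6.74 and 7.27 in untreated cells (−0.79, SE 0.20, adjusted p = 0.652). The difference was −1.25 with piroxicam and −0.33 without it (interaction, unadjusted p = 0.011, adjusted p = 0.972). AURKA, the mitotic kinase Aurora A, was at 8.13 and 8.23 with P/C and 8.99 and 8.32 with C, against 8.72 and 8.46 with P and 9.23 and 9.40 in untreated cells (−0.53, SE 0.14, adjusted p = 0.69), and a second bright probe set gave −0.53 as well. The centromere histone CENPA (−0.51, SE 0.08, adjusted p = 0.30) and the kinesin KIFC1 (−0.55, SE 0.11, adjusted p = 0.479) were lower in 4 of 4 pairs, with all their values under the signal limit.

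A hexamer called the cell cycle genes homology region, TTTGAA, is common in promoters of mitosis genes. Searched on both strands of the same window, it was in 31 of 43 promoters of the listed genes (72.1%) and in 15.6% of the promoters of all genes of the array. The stretches of the 3 genes just named that hold it are shown for this reason, with the hexamer in capitals. It stands on the other strand, as TTCAAA, in KIFC1.
CENPA: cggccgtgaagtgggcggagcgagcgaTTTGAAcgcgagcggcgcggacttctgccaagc
KIF18A: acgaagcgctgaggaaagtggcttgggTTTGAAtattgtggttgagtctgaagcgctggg
KIFC1: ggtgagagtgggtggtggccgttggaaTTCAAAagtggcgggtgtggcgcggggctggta
These lie at chr2:26786011-26786070 (plus strand), chr11:28108134-28108193 (minus strand) and chr6:33391800-33391859 (plus strand) of GRCh38.p14.

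**Figure D2:**
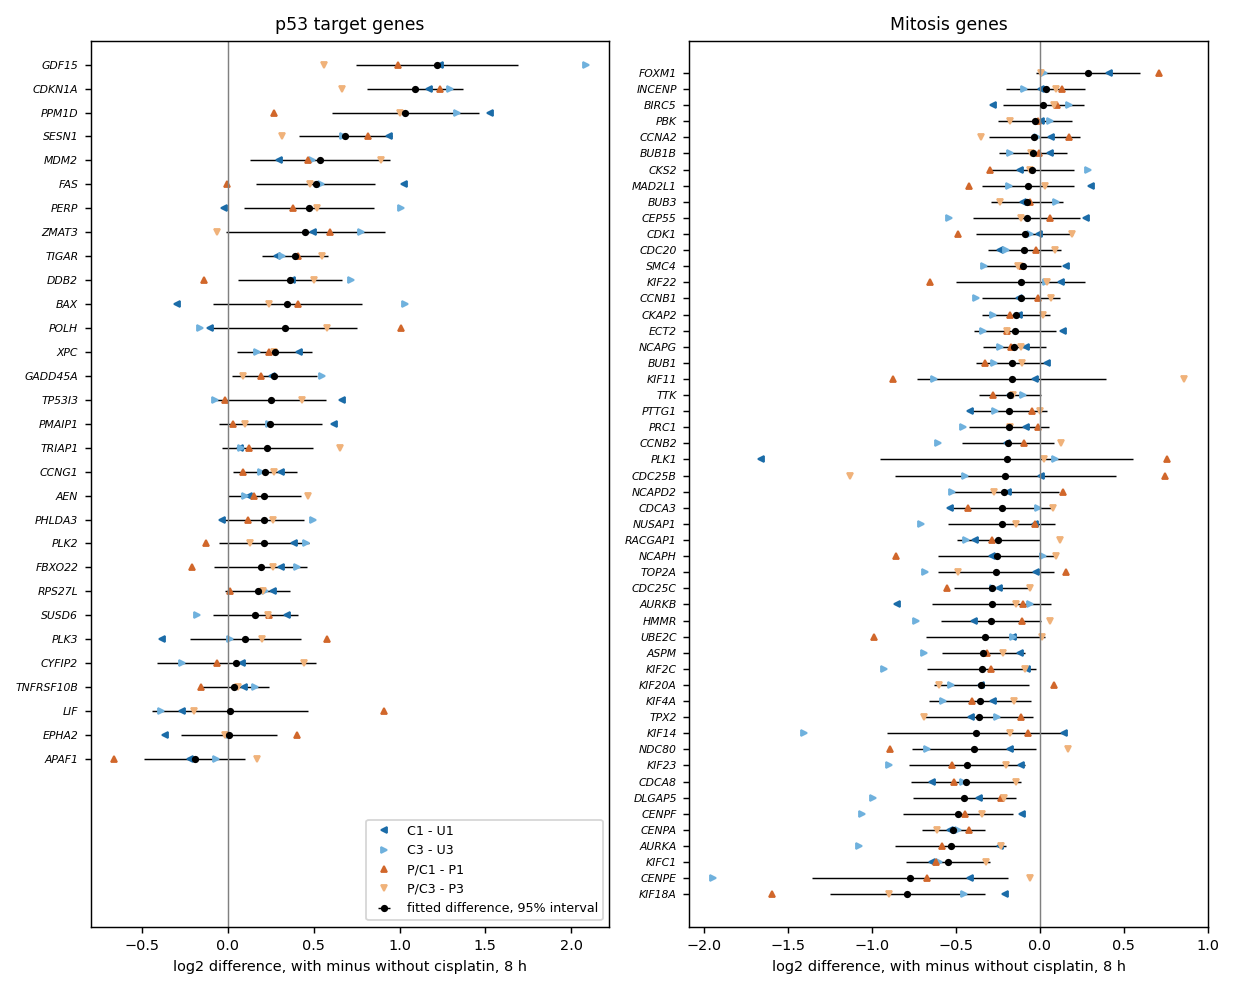
Log2 difference with minus without cisplatin at 8 h (horizontal axis) for the 30 measured p53 target genes and the 52 measured mitosis genes (vertical axis, sorted), with the fitted value and its 95% interval in black and the 4 matched pairs in colour. Of the p53 target genes 29 lie above 0, and of the mitosis genes 49 lie below 0, while the pairs of many single genes spread over both sides.

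Of 31 immediate-early and AP-1 genes, which are switched on within minutes of a stimulus, 30 were measured. Their median difference was 0.15 (0.09 without P/C replicate 1), and 8 were higher and 1 was lower in all 4 pairs (all genes: 5.73% higher and 7.21% lower). Besides ATF3 the smallest p were those of IER5 (0.39, SE 0.09), the synaptic regulator ARC (0.72, SE 0.18, dim on all arrays) and the transcription factor CEBPB (0.30, SE 0.08). IER5 was at 8.60 and 8.91 with P/C and 8.64 and 8.95 with C, against 8.42 and 8.53 with P and 8.12 and 8.46 in untreated cells, and the arrays with and without cisplatin did not overlap.

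DNA replication genes had a median of 0.01 over 51 genes, with 7 higher and 4 lower in all 4 pairs against the same 5.73% and 7.21% of all genes, and DNA damage sensing and repair genes one of −0.02 over 44 genes, with 1 higher and 2 lower. The uracil-DNA glycosylase UNG had the smallest p among the repair genes (0.55, SE 0.16, adjusted p = 0.729), with 0.35 when C replicate 3 was left out. Medians were also within 0.06 of 0 for the ribosomal protein genes (0.04, 34 genes), the integrated stress response genes (0.05, 33 genes), the death receptor and caspase genes (0.03, 23 genes), the metallothionein genes (0.02, 10 genes), the copper and platinum transport genes (0.02, 12 genes) and the NRF2 and glutathione genes (−0.0022, 32 genes). Further from 0 were the BCL2 family genes (0.09, 19 genes) and the histone genes (−0.099, 18 genes). The YAP/TEAD and TGF-beta response genes had −0.08 (25 genes). A mean signal of at least 100 was reached by 34 of 34 ribosomal protein genes and 30 of 51 DNA replication genes. It was also reached by 19 of 33 integrated stress response genes and 17 of 32 NRF2 and glutathione genes. In the other lists of this paragraph most genes were dim. The integrated stress response genes had a median of 0.56 with piroxicam. For DDIT4, a stress-induced inhibitor of mTORC1, the log2 signal was 7.73 and 8.16 with P/C and 3.57 and 4.04 with C, against 7.73 and 7.72 with P and 2.35 and 2.79 in untreated cells. The untreated values lie at the medians of the arrays (2.72 to 2.81) and the C values are also dim, so differences against these arrays do not measure the full change. The fitted cisplatin difference was 0.73 (SE 0.20, adjusted p = 0.704), made up of 1.23 without and 0.22 with piroxicam (interaction, unadjusted p = 0.0022, adjusted p = 0.972), and that with piroxicam was 4.65.

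Gene length was examined because many of the genes with the lowest p on the lower side are long; this was chosen after the values were seen and is given as a description. Length is the span of the gene in RefSeq (GRCh38.p14), known for 11953 genes. The span was 248 kb for ZMIZ1, 367 kb for NR3C2, 335 kb for MGAT5, 307 kb for TNS3 and 317 kb for EXT1, against a median of 28.9 kb. Over all genes, 57 were lower by at least 0.5 in the fit and lower in all 4 pairs; their median length was 206 kb, and 49 of them (86%) were over 80 kb, against 23.3% of all genes. The 27 that were higher by at least 0.5 and in all 4 pairs had a median of 10.9 kb, and 3 of them (11.1%) were over 80 kb. Of the higher genes named above, CDKN1A spans 10.9 kb, GDF15 3.02 kb and CEBPD 1.25 kb. ATF3 (55.4 kb), PPM1D (66.1 kb) and SESN1 (111 kb) are longer than the median over all genes.

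Among the 2418 genes with a known length and a mean signal of at least 100, the median difference was 0.05 for the 254 genes under 5 kb, 0.02 for those of 20 to 40 kb, −0.08 for the 317 genes of 80 to 160 kb, −0.12 for the 97 genes of 160 to 320 kb and −0.22 for the 28 genes over 320 kb. Of these 28, 26 were below 0, and 13 were lower in all 4 pairs (46.4%) with none higher. Among all genes with such a signal 6.16% were lower in all 4 pairs and 7.9% higher. In the longest class all 4 pairs had a negative median, −0.13 for C − U and −0.29 for P/C − P within replicate 1, and −0.41 for C − U and −0.18 for P/C − P within replicate 3. Without 1 array at a time its median was between −0.265 and −0.159. Over all genes, most of them dim, the 468 genes over 320 kb had a median of −0.08 and the 1430 genes under 5 kb one of 0.02.

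Shorter classes were less uniform. The rank correlation of the difference with length across these genes, which share the same arrays and are not independent, was −0.38 for the fitted difference, −0.39 for C − U in replicate 3 and −0.26 for P/C − P in each replicate, but 0.11 for C − U in replicate 1, where the classes under 10 kb and over 320 kb had medians below 0 and those between had medians above 0. For the piroxicam difference of the same fit it was −0.06, and the median of the 28 longest genes was 0.02. These fitted values average pairs of unlike sign. In replicates 1 and 3 the rank correlation was 0.145 and −0.171 for P − U, and −0.112 and 0.00346 for P/C − C. The medians of the 28 genes were 0.118 and −0.136 for P − U, and −0.0764 and 0.203 for P/C − C. The U arrays enter both C − U and P − U, whose correlations were positive in replicate 1 and negative in replicate 3. The source of this was not tested.

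Longer genes of this set were also dimmer. The median over genes of the log2 signal, averaged over the 8 arrays, was 8.58 under 5 kb and 7.49 over 320 kb. Within the dimmer genes alone (a mean log2 signal under 8), the median difference was −0.15 for 71 genes over 160 kb and 0.08 for 333 genes under 20 kb. Within the brighter ones (8 and over) it was −0.10 for 54 genes over 160 kb and 0.04 for 597 genes under 20 kb. The contrast of 3′ and 5′ control probe sets, a sign of RNA quality, overlapped between the 2 sets of arrays, at 1.19 to 1.74 with and 0.81 to 1.88 without cisplatin for ACTB and 0.19 to 0.62 with and 0.07 to 0.68 without for GAPDH, and its part in the result was not tested.

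**Figure D3:**
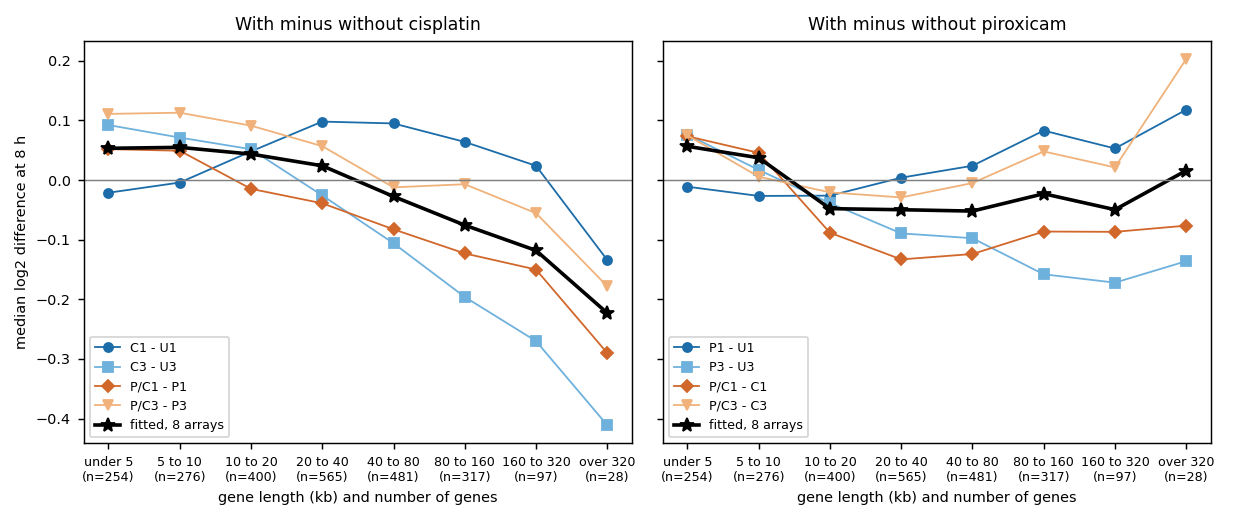
Median log2 difference at 8 h (vertical axis) of genes with a mean signal of at least 100, by gene length in kb (horizontal axis, with the number of genes), for cisplatin on the left and piroxicam on the right, in each pair of arrays and in the fit. The fitted cisplatin line goes down to −0.22 over 320 kb, where all 4 pairs are below 0, while the piroxicam pairs lie on both sides of 0.

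Named long genes differed in size and in how evenly the pairs agreed; the 4 that follow were chosen after their values were seen. PTPRK, a receptor tyrosine phosphatase of 552 kb, was at 6.98 and 7.05 with P/C and 6.34 and 5.91 with C, against 7.28 and 7.23 with P and 6.94 and 7.37 in untreated cells. Its difference was −1.03 without and −0.24 with piroxicam. NAV3, a microtubule-associated protein of 641 kb, had a fitted difference of −0.46 (SE 0.12), EHBP1, an adaptor of endocytic trafficking (373 kb), one of −0.45 (SE 0.12), and FUT8, the core fucosyltransferase (387 kb), one of −0.44 (SE 0.13), with adjusted p of 0.652 to 0.708. All 3 were lower in 4 of 4 pairs. MNAT1, a subunit of the kinase module of TFIIH (235 kb), was dim and had −0.44 (SE 0.12, adjusted p = 0.708). The TGF-beta signal transducer SMAD3 (130 kb), also dim on all arrays, had −0.48 (SE 0.12, adjusted p = 0.66), with −0.74 without and −0.21 with piroxicam. Of the inflammatory genes the cytokine IL1B, a short gene of 7.03 kb, had −0.44 (SE 0.11, adjusted p = 0.652), while a second bright probe set had −0.25 and was lower in 3 of 4 pairs.

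The cisplatin difference was measured once without piroxicam (C − U) and once with it (P/C − P), in comparisons that share no array. No probe set was called in either (limma; smallest adjusted p 0.475 and 0.928), with 994 and 1059 at an unadjusted p under 0.05. Of 150 genes with a C − U difference of −0.5 or lower, 119 (79.3%) were also below 0 in P/C − P, where 55.5% of all genes were above 0. Of 176 genes with a C − U difference of 0.5 or higher, 104 (59.1%) were above 0 in P/C − P. Over all genes the correlation of both differences was 0.16, and over the 2419 genes with a mean signal of at least 100 it was 0.30.

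The interaction, which tests whether both differences differ, gave no call (limma; smallest adjusted p 0.972; 890 at an unadjusted p under 0.05). Some genes nevertheless had unlike values. GDF15 had 1.66 (SE 0.21) without and 0.78 (SE 0.21) with piroxicam, and PPM1D 1.43 and 0.64. The epidermal growth factor receptor EGFR was at 8.86 and 8.28 with P/C and 7.75 and 6.41 with C, against 8.34 and 8.71 with P and 8.63 and 8.71 in untreated cells, which is −1.59 (SE 0.37) without and 0.05 with piroxicam (interaction adjusted p = 0.972) by its brightest probe set. Its fitted difference of −0.77 was −0.32 without C replicate 3 and −1.16 without P replicate 1. A dim second probe set of EGFR had nearly equal values, −0.44 without and −0.46 with piroxicam, and was lower in 4 of 4 pairs, so the unlike values hold for 1 probe set. CCNE2, the S-phase cyclin E2, had 1.40 (SE 0.19) without and −0.03 with piroxicam, at signals under the limit. CDKN1A had 1.23 without and 0.95 with piroxicam (SE 0.17 each).

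**Figure D4:**
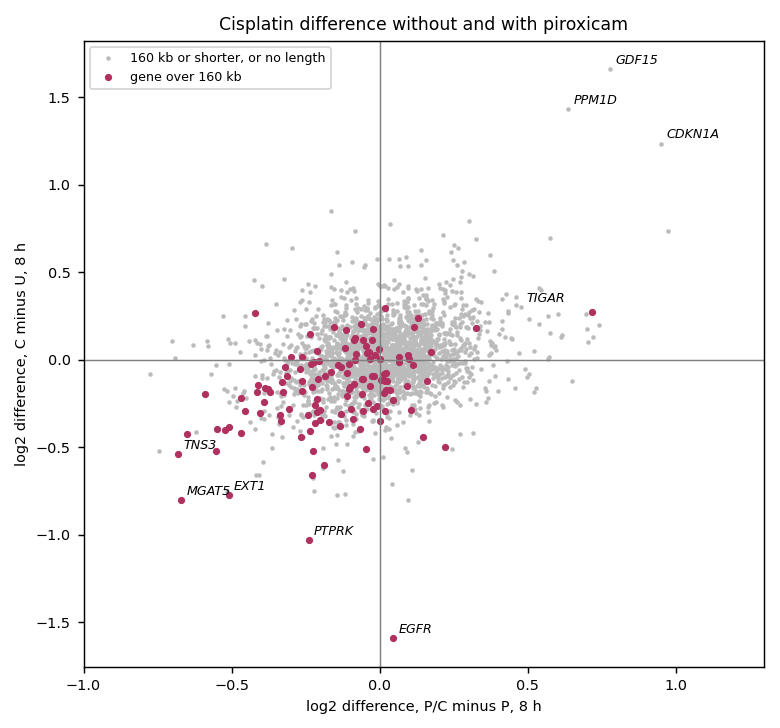
Log2 difference P/C minus P (horizontal axis) against C minus U (vertical axis) at 8 h for the genes with a mean signal of at least 100, genes over 160 kb in dark red. CDKN1A, GDF15 and PPM1D stand apart at the upper right, MGAT5, TNS3 and EXT1 at the lower left, and the brightest EGFR probe set is low on the vertical axis alone, which a dimmer EGFR probe set, not drawn, does not share.

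The difference with cisplatin was then tested against the difference with piroxicam in the same fit, a contrast that comes to C minus P in this design. It called 214 probe sets, 137 (0.617%) with the higher value for cisplatin and 77 (0.347%) with the lower. Among the named genes, cisplatin stood above piroxicam in TENT5A by 1.82 (adjusted p = 0.0047), in CCNE2 by 2.03 (adjusted p = 0.043) and in ARC by 1.45 (adjusted p = 0.033), and below it in ZMIZ1 (−1.76, adjusted p = 0.0094), PHLDA1 (−1.14, adjusted p = 0.024; −0.57, adjusted p = 0.163 by its brighter probe set), CENPA (−1.15, adjusted p = 0.0061) and DDIT4 (−3.92, adjusted p = 0.0027). CDKN1A had 0.88 (adjusted p = 0.047), under the fold limit. In TENT5A, CCNE2, ARC, ZMIZ1, PHLDA1 and CENPA the fitted differences of the 2 drugs were opposite in sign. The split was 113 higher and 97 lower after centring each array on its median. The count was 90 without C replicate 1, 50 without C replicate 3, 62 without P replicate 1 and 12 without P replicate 3 (all 8 h).

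At 24 h, in arrays that the 8 h comparison did not use, the same genes had mostly the same sign. Of the 71 genes lower by at least 0.5 at 8 h, 71 were below 0 in C − U at 24 h (median −0.62) and 55 in P/C − P (median −0.48), where the medians over all probe sets were 0.01 and −0.01. Of the 43 genes higher by at least 0.5 at 8 h, 32 and 36 were above 0. Among all genes 52.6% were above 0 in C − U and 47% in P/C − P at 24 h. The median of the p53 target genes was 0.84 in C − U and 0.67 in P/C − P at 24 h, and that of the 28 longest genes of at least a signal of 100 was −0.825 and −0.64. CDKN1A had 1.82 and 1.37, MGAT5 −1.57 and −1.57, and ZMIZ1 −1.10 and −0.96. Not every named gene kept its sign. IL1B, with −0.44 at 8 h, had 0.62 and 0.73 at 24 h. CCNE2, dim and with 0.69 at 8 h, had −1.29 in C − U and 0.25 in P/C − P at 24 h.

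The C − U values at 24 h depended on single arrays. On the library labelled C 24 h replicate 1, CDKN1A was at 8.66, against 10.71 and 11.46 on the other C arrays at 24 h and 8.72 and 8.20 on the U arrays. That array thus lay at the untreated level of this gene, goes against its label in this respect, and enters the C − U means above. When each array of 24 h was left out in turn, the C − U median of the p53 target genes was 0.545 (without C replicate 3) to 1.24 (without C replicate 1), and that of the 28 longest genes −1.09 (without C replicate 1) to −0.568 (without C replicate 2). Of the 71 genes 65 to 71 were below 0. Of the 43 genes 24 to 33 were above 0, the 24 without U replicate 2, where their median was 0.0111 against 0.287 with all arrays. The test of the cisplatin difference at 24 h against that at 8 h gave no call (limma; smallest adjusted p 1; 1029 at an unadjusted p under 0.05). It comes from the fit of all 18 arrays, which does not use the pairing of the 8 h arrays and in which the 8 h difference itself had a smallest adjusted p of 1. There were 21 calls, 10 higher and 11 lower, without that array. Within 24 h, 1 probe set was called lower (0.0045%) and none higher in C − U, and none was called in P/C − P (limma; 2844 at an unadjusted p under 0.05). Without C 24 h replicate 1, C − U had 105 calls higher and 160 lower and P/C − P had 80 higher and 65 lower. Without P/C 24 h replicate 3, P/C − P had 409 higher and 214 lower. Mitosis genes had −0.42 in C − U and −0.18 in P/C − P at 24 h, and the P/C − P value depended on single arrays, being 0.18 with P/C 24 h replicate 3 left out, −0.61 with P/C 24 h replicate 1 left out and −0.07 with P 24 h replicate 1 left out.

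Across the 8 arrays at 8 h, the share of probe sets at a signal of 100 or more was 15.5% to 16.4%. The array P/C replicate 1 had the lowest array weight (0.52, others 0.85 to 1.46) and a log2 signal of 2.35 in a control probe set for 18S rRNA, against 5.24 to 8.86 on the others. Without it CDKN1A had 1.03 and the smallest adjusted p was 0.197. Of 14 measured mesothelial and mesothelioma markers, 4 had a signal of at least 100 (VIM, KRT18, KRT8 and CAV1), while WT1 (5.62), CALB2 (3.65) and MSLN (2.32) were dim. None of 14 leukocyte and erythroid and none of 14 fibroblast and endothelial markers reached that signal, with summed linear signals of 58.5 to 62.9 with and 59.9 to 64.4 without cisplatin for the first list and 134 to 155 with and 124 to 172 without for the second.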

How the data were processed

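The authors made the deposited log2 values with GCRMA, which corrects for background and normalizes between arrays, after removing arrays with outlying raw intensity; no version of GCRMA is named in the labels or the methods. Raw intensities were not used here. Since normalization sets the arrays to 1 scale, a general change of RNA per cell cannot be seen. The values hold no counts, so the number of arrays limits the precision. Control probe sets of the manufacturer (68) did not enter the tests.

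For the 8 arrays at 8 h, a linear model (limma 3.58.1, R 4.3.3) held cisplatin, piroxicam and the replicate number as terms, leaving 4 residual and 4.47 prior degrees of freedom. A second fit with 1 mean per group and the same block gave C − U, P/C − P and the interaction. The 24 h values came from 1 mean per group over all 18 arrays. Tests were two-sided. The replicate numbers pair the 8 h arrays, as same-numbered arrays deviated together from their group means (r = 0.165 to 0.469 in 6 pairs of groups). P values measure only the spread between these arrays.

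Of the tested probe sets 19065 have 1 gene symbol in the platform annotation, 1043 several and 2107 none, and no gene was named from those with several. No symbol changed on updating by Entrez ID. A gene was represented by its probe set of highest mean over the 18 arrays. Up to 15 called probe sets in each direction were to be named, and where a direction had under 10, up to 10 with the smallest p that agreed in all 4 matched pairs and reached a mean signal of 100 with or without cisplatin, further up to 4 members of each list with the smallest p, and CDKN1A; genes outside this rule are said to be so. The comparison and the gene lists were chosen with earlier results of these data known. The main design was also run on simulated arrays that took their means, replicate shifts and spread from these data. The planted differences were at least as large as any fitted cisplatin difference at 8 h given here. That run therefore does not show how well differences of the sizes reported are found. 

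Alternatives were no replicate block, 2 signal filters, quantile normalization, median centring, an intensity trend, array weights, all 18 arrays in 1 fit, no fold limit, and leaving out each array.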

Additional observations from a re-analysis of the deposited data

Results flagged for a closer look

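For each of 43 named probe sets the 4 arrays with and the 4 arrays without cisplatin were examined for 1 array far from the other 3, 86 groups in all, and 1 was found, where chance gives about 1 in 20 groups. ZMIZ1 had a log2 signal of 7.49 on P 8 h replicate 1, against 6.63 to 6.69 on the other 3 arrays without cisplatin. Without that array its difference was −1.09.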

How the results depend on the processing

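For the cisplatin difference at 8 h the count of calls was 0 in the main design, 3 with the limits of the study's filter and 4 with the intensity trend, and leaving out 1 array gave 0 to 1 (1, CDKN1A, without P/C replicate 3). C − U had 2 calls with the intensity trend and 0 in all other alternatives, including 0 to 0 on leaving out 1 array, and P/C − P and the interaction had 0 in all alternatives run. The 8 h numbers pair the arrays; with no replicate block the count for cisplatin was 0 and the smallest adjusted p 0.379. Cisplatin against piroxicam, with 214 calls, had 59 with no replicate block, 86 with the limits of the study's filter, 87 with probe sets that reach a signal of 100 on 2 or more arrays, 405 without the fold limit, and 12 to 256 on leaving out 1 array; these alternatives were chosen after the data were seen. Its split of 137 higher and 77 lower was 113 and 97 after median centring. The difference between 24 h and 8 h had 0 to 21 calls on leaving out 1 array of 24 h, also chosen after the data were seen, with 21 without C 24 h replicate 1. Of 714 values of the named probe sets under alternatives, 706 kept their direction and side of the threshold, 8 passed it (those of CDKN1A, ATF3, ZMIZ1 and NR3C2) and 0 turned their sign. None of these probe sets was called in the main design, so the 706 are values that stayed uncalled. Most were named for a small p or for agreement of all 4 pairs, which made a turned sign unlikely from the start. The median of the immediate-early genes was 0.31 with either signal filter. Differences of probe sets near the array medians, such as that of DDIT4 in untreated cells, do not measure the full change.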
